A study of Caenorhabditis elegans with 4 samples.

Results

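Wide NURF-1 peaks are described here, defined as the nuclear peaks of the series-wide list that spanned 1000 bp or more. They numbered 574 of the 7512 peaks in that list, which was 7.66% of its 7494 nuclear peaks. The other 18 peaks lay on mitochondrial DNA, where 0 reached 1000 bp. Peaks were mapped by chromatin immunoprecipitation and sequencing (ChIP-seq) in whole L3 larvae of Caenorhabditis elegans. All 4 samples came from strain N2 with a wild-type genotype, kept at 20 degrees Celsius as populations of both males and hermaphrodites. The ChIP group held 2 replicates made with the affinity-purified rabbit polyclonal antibody SDQ3525 against NURF-1, and the input group held 2 replicates of DNA without immunoprecipitation. Signals from all tissues of the larva are averaged in such samples, and no mutant lacking NURF-1 was among them. The deposited data were a peak list for each ChIP replicate and one for the series. No input values were analysed here.

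NURF-1 is the worm counterpart of BPTF, the largest subunit of the nucleosome remodelling factor NURF. In flies and mammals, where the complex is best known, an ISWI-type ATPase uses the energy of ATP to slide nucleosomes along DNA, and BPTF brings the complex to modified histone tails. A peak in such a list is a stretch over which a peak caller found sequenced fragments to be enriched, and its width depends on the length of bound chromatin, on fragment size and on how far the caller extends or joins neighbouring signal. The peaks are on the WormBase WS220 genome build. The genes under them were not analysed here, since the annotation at hand is of another build.

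The peaks were chosen by their width in the series-wide list, and the score in the same list moves with width, so both are given as a description and not tested. Replicate lists come from the libraries behind the series-wide list and are no independent evidence either. Neighbouring peaks are not independent replicates, so shares carry Wilson 95% intervals for counting error in place of a test. The lists hold no read counts, so depth is unknown. Whether the replicates are separate cultures is not stated in the labels, so differences between them may be technical.

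The typical wide peak was only a little over the threshold. Widths ran from 1000 bp to 11059 bp, with a median of 1188 bp and 90% of the peaks at or below 1794 bp. Of the 574 peaks, 337 (58.7%) were under 1250 bp, 117 were 1500 bp or more and 42 were 2000 bp or more. The median of the remaining 6920 nuclear peaks was 347 bp. Wide peaks together covered 786919 bp. This was 21.4% of all sequence under nuclear peaks, and 0.785% of the nuclear chromosomes.

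The threshold fell within a continuous range. The 3 peaks just inside it were each 1000 bp wide and scored 29.7 on chromosome I (13475203 to 13476202), 88.0 on II (9623705 to 9624704) and 39.6 on IV (11142296 to 11143295). The 3 peaks just outside it were 999, 997 and 997 bp wide and scored 129, 92.9 and 101.7. Peaks on either side of the threshold are thus alike in width, and those outside it here had the higher scores.

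Most wide peaks scored well, but the widest of them did not score highest. The score is the authors' own value for each peak, on a scale not given in the sources used here. Wide peaks had a median score of 84.6, with the middle 50% between 34.2 and 134.8. Remaining peaks had a median score of 11.1. Of the wide peaks, 541 (94.3%, interval 92.0 to 95.9) scored above the median of the series-wide list, and 21 scored under 10. Wide peaks made up 5 of the 10 highest-scored nuclear peaks, 47 of the highest 100 and 273 of the highest 1000.

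Score did not go on rising with width past 1000 bp. Median scores were 50.0 for peaks of 500 to 749 bp, 75.8 for peaks of 750 to 999 bp and 90.3 for peaks of 1000 to 1249 bp. They were then 81.7 at 1250 to 1499 bp, 82.0 at 1500 to 1999 bp and 35.7 for the 42 peaks of 2000 bp or more. The widest class therefore held lower-scored peaks than the classes just above the threshold.

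**Figure D1:**
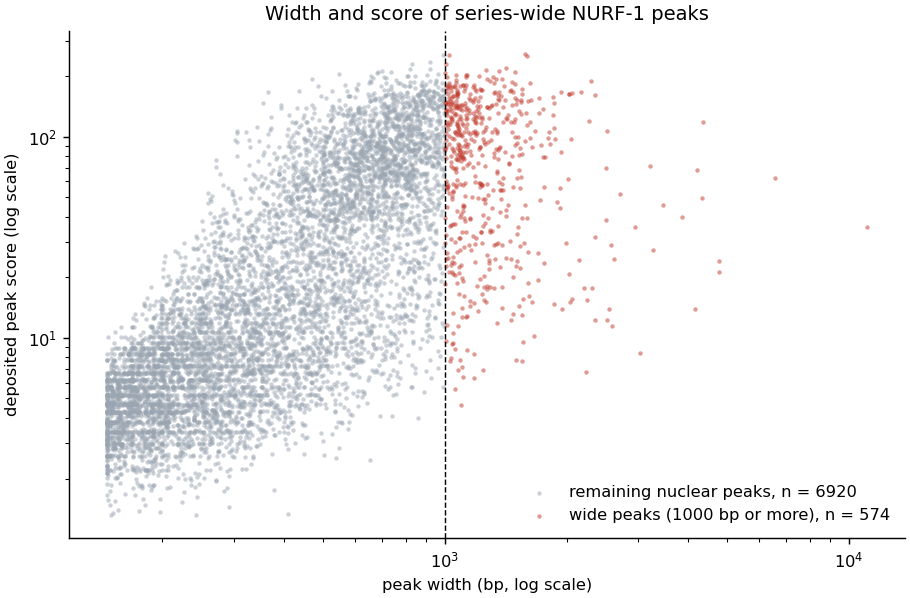
Width (x axis, bp, log scale) and deposited score (y axis, log scale) of each nuclear peak of the series-wide list, with the 574 wide peaks in red and the other 6920 in grey. Score climbs with width up to the dashed line at 1000 bp, and the few peaks beyond 2000 bp sit at middling scores, with a median of 35.7.

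The highest-scored wide peaks were single peaks. The first, on chromosome I at 7020548 to 7022123, was 1576 bp wide and scored 257, the top score of the list. In replicate 1 it was a single peak of 1533 bp that ranked 5 by score, and in replicate 2 a single peak of 1080 bp that ranked 2. The next, on V at 18533207 to 18534229, was 1023 bp wide and was a single peak of 826 bp in replicate 1 and of 864 bp in replicate 2. After it came a peak on III at 1618474 to 1620067, which was 1594 bp wide, 1469 bp in replicate 1 and 1171 bp in replicate 2. The other two lay on I at 8816040 to 8817047 (1008 bp, score 231) and on IV at 14824354 to 14825767 (1414 bp, score 221). All 5 were single peaks in each replicate, and the replicates put each of them at rank 51 or better.

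Nearly every wide peak was seen in both replicates. Both lists held an overlapping peak, sharing at least 1 bp, for 566 of the 574 (98.6%, 97.3 to 99.3), and 0 were in neither (upper bound 0.665%). Over all nuclear peaks the share in both was 58.0%. For the remaining 6920 it was 54.6% (53.4 to 55.8). Peaks most like the wide ones gave close values, at 98.1% for 846 peaks of 750 to 999 bp (97.0 to 98.8) and 96.7% for 3212 remaining peaks scored above the list median (96.0 to 97.2).

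The 8 exceptions scored from 4.62 to 18.7, all below the lower quartile of wide peaks, 34.2. Of these, 7 were in replicate 1 alone (1.22% of wide peaks) and 1 in replicate 2 alone (0.174%). Over all nuclear peaks the shares were 19.7% and 6.95%, so replicate 1 held more unshared peaks there too. The widest exception, on III at 3334348 to 3336390, was 2043 bp in the series-wide list and a single peak of 2039 bp in replicate 1, with no peak in replicate 2. An exception on X at 14791292 to 14792893 was likewise a single peak of 1570 bp in replicate 1 with none in replicate 2. The peak in replicate 2 alone, on IV at 8578303 to 8579756, was 2 peaks there, the wider of 526 bp.

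Whether a wide peak was one peak or several in the replicates was examined next. In replicate 1, 423 of the 574 were 1 peak (73.7%, 69.9 to 77.1), 150 were 2 or more (26.1%, 22.7 to 29.9) and 30 were 3 or more. In replicate 2, 380 were 1 peak (66.2%, 62.2 to 70.0), 187 were 2 or more (32.6%, 28.9 to 36.5) and 42 were 3 or more. Over all nuclear peaks, 73.8% were 1 peak in replicate 1 and 60.6% in replicate 2, while 3.79% and 4.35% were 2 or more. The share of single peaks in replicate 1 was thus at its background, which also counts peaks absent from replicate 1. Single peaks in replicate 1 were 91.0% of those of 750 to 999 bp and 96.9% of remaining peaks scored above the list median. Among peaks of 750 to 999 bp, the share with 2 or more was 8.39% in replicate 1 (6.71 to 10.5). In replicate 2 it was 9.81% (7.98 to 12.0). A wider interval has more room for several peaks, so part of the difference in this share may come with the rule, which was not tested.

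A single peak in both replicates was the most frequent form. It applied to 334 wide peaks (58.2%, 54.1 to 62.2), against 51.9% of all nuclear peaks, 82.6% of those of 750 to 999 bp and 91.3% of the remaining peaks scored above the list median. Another 102 were 2 or more peaks in both (17.8%, against 1.68% of all nuclear peaks). A further 84 were 1 peak in replicate 1 and several in replicate 2 (14.6%, against 2.56% of all nuclear peaks). The reverse held for 46 (8.01%, against 1.85%). At 750 to 999 bp these mixed forms made up 7.57% and 6.03%. Replicate 2 held more peaks than replicate 1 under 109 wide peaks and fewer under 71, and the numbers were equal under 394. That count was not made over all nuclear peaks. Their mixed forms leaned to replicate 2 as well, at 192 against 139, so this lean was not particular to wide peaks.

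Division rose step by step with width. In replicate 1 the share with 2 or more peaks was 16.3% at 1000 to 1249 bp, 25.8% at 1250 to 1499 bp, 48.0% at 1500 to 1999 bp and 66.7% at 2000 bp or more. In replicate 2 it was 19.0%, 44.2%, 52.0% and 73.8% in the same classes. The lowest-scored wide peaks were divided more often too. Of the 33 wide peaks scored at or below the list median, 19 were several peaks in replicate 1 (57.6%, 40.8 to 72.8) and 18 in replicate 2 (54.5%, 38 to 70), against 24.2% (20.8 to 28.0) and 31.2% (27.5 to 35.3) of the 541 scored above it.

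**Figure D2:**
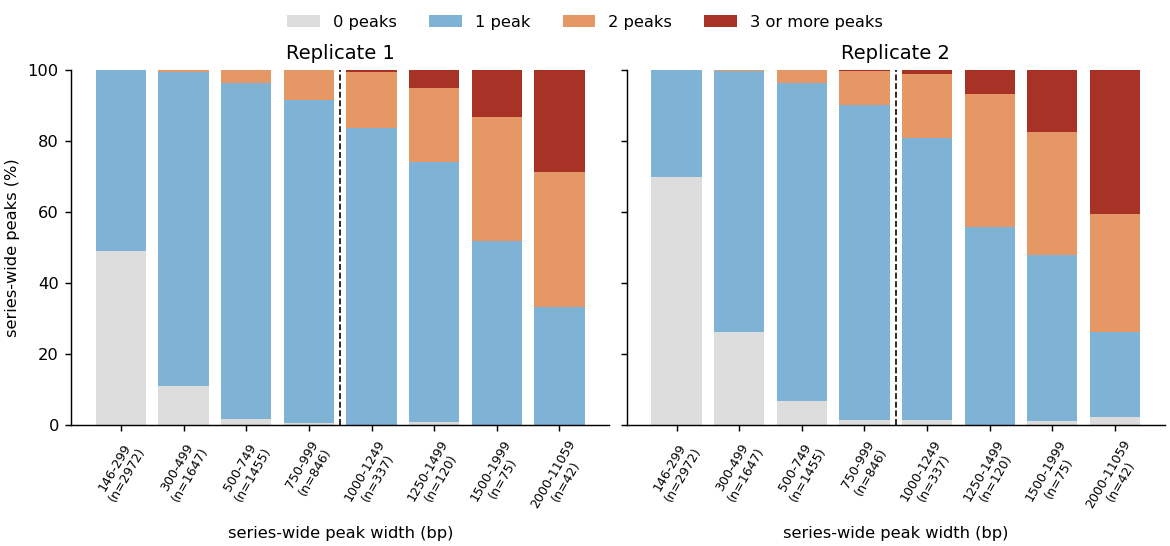
Share of series-wide nuclear peaks (y axis, %) that overlapped 0, 1, 2 or at least 3 peaks in replicate 1 (left) and replicate 2 (right), by series-wide width class (x axis, bp, with the number of peaks). Right of the dashed line at 1000 bp, the share with 2 or more peaks climbs from 16.3% to 66.7% in replicate 1 and from 19.0% to 73.8% in replicate 2.

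The breaks inside divided peaks were short. Among the 150 wide peaks divided in replicate 1, the longest break had a median of 122 bp and was under 200 bp in 113 (75.3%). Among the 187 divided in replicate 2 it had a median of 169 bp and was under 200 bp in 115 (61.5%). In each of the 3 lists the shortest gap between neighbouring nuclear peaks was 51 bp, so a break of 50 bp or less never appears as one.

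Breaks often overlapped between the replicates, though less of their sequence was shared. In the 102 wide peaks divided in both, replicate 1 had 141 breaks, of which 95 (67.4%) overlapped a break of replicate 2, and 79 of the 102 shared at least 1 break. Replicate 2 had 149 breaks, of which 90 (60.4%) overlapped a break of replicate 1. Of the 22350 bases in replicate 1 breaks, 44.8% were also in a replicate 2 break. Replicate 2 breaks made up 20.8% of all bases in these 102 peaks. Of the 40221 bases in replicate 2 breaks, 24.9% were also in a replicate 1 break. Replicate 1 breaks made up 11.5% of all bases in these peaks. Whether the overlap exceeds chance was not tested.

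Since the rule chose peaks by series-wide width, narrower replicate peaks may come in part with the choice, which was not tested. In replicate 1 the widest overlapping peak itself reached 1000 bp under 311 of the 574 (54.2%, 50.1 to 58.2), and in replicate 2 under 170 (29.6%, 26.0 to 33.5). In 141 (24.6%) it did so in both, in 170 in replicate 1 only, in 29 in replicate 2 only and in 234 (40.8%) in neither. Over all nuclear peaks, an overlapping peak of 1000 bp or more was found for 4.47% in replicate 1, 2.32% in replicate 2 and 1.88% in both. Replicate 2 is the shorter list, with 5354 nuclear peaks against 6319, and its median nuclear peak width was 358 bp against 370 bp.

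Widths were then compared where no division entered. For the 334 wide peaks that were 1 peak in both replicates, the median width was 1119.5 bp in the series-wide list, 1052 bp in replicate 1 and 950.5 bp in replicate 2. The series-wide peak was wider than either replicate peak in 282 of them (84.4%), and replicate 1's peak was wider than replicate 2's in 239 (71.6%). Both shares were close to those of the 3888 nuclear peaks of any width that were single in both, at 82.1% and 66.0%. The median ratio of series-wide to replicate width was 1.07 for replicate 1 and 1.19 for replicate 2, and over those 3888 peaks it was 1.12 and 1.27.

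Base by base, both replicates covered most of the sequence. Of all bases under wide peaks, 68.1% were under a peak in both replicates, 18.6% in replicate 1 only, 6.24% in replicate 2 only and 7.07% in neither. The median wide peak was covered to 90.7% by replicate 1 peaks and to 79.0% by replicate 2 peaks. Few wide replicate peaks fell elsewhere. Of the 330 nuclear peaks of at least 1000 bp in replicate 1, 317 overlapped a wide series-wide peak, and of the 174 in replicate 2, 171 did. At the other 13 and 3, the widest overlapping series-wide peak measured 533 to 990 bp and 721 to 991 bp.

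**Figure D3:**
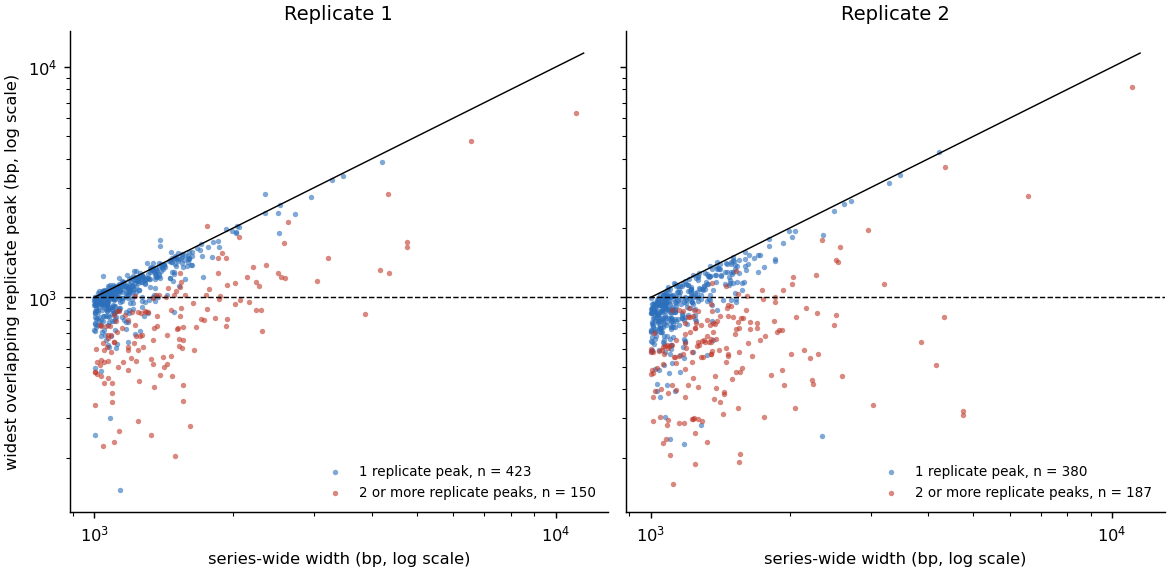
Width of the widest overlapping replicate peak (y axis, bp, log scale) against series-wide width (x axis, bp, log scale) for each wide peak found in replicate 1 (left, 423 with 1 peak and 150 with more) or replicate 2 (right, 380 and 187). The solid line marks equal widths and the dashed line 1000 bp. Undivided peaks (blue) mostly lie close under the solid line, though some lie above it or far below it. Divided ones (red) mostly fall further below it.

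The 10 widest peaks were either single in both replicates or several in both. Of these 10, 8 lay in chromosome arms and 2 in centres, 2 were on X, and 8 were several peaks in each replicate. The widest, on I at 15060289 to 15071347, lies at the end of the chromosome that carries the large ribosomal RNA genes; how reads from repeated sequence were handled is not given in the sources used here. Replicate 1 divided its 11059 bp into peaks of 880, 6322, 374 and 2618 bp, and replicate 2 into peaks of 8225 and 2621 bp. The right-hand break fell at the same place in both, since the last peak began 2892 bp from the centre in replicate 1 and 2895 bp in replicate 2.

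Some of the 10 were broad in replicate 1 and sparse in replicate 2. The peak on III at 2497053 to 2501810 (4758 bp) was covered to 95.3% by 4 replicate 1 peaks of 464 to 1648 bp, and to 22.7% by 5 replicate 2 peaks of 149 to 310 bp. The peak on X at 109526 to 114281 (4756 bp) was covered to 88.6% by 4 peaks in replicate 1 and to 10.6% by 2 peaks in replicate 2. On X at 16929371 to 16935935 (6565 bp), coverage was 96.9% in replicate 1 and 48.7% in replicate 2, with 3 peaks in each. On II at 11757657 to 11761981 (4325 bp) it was 93.5% and 25.2%, in 3 and 2 peaks. The peak on V at 10605682 to 10609838 (4157 bp) had the most replicate 2 peaks of all wide peaks, 6, which covered 35.5% of it, while 4 replicate 1 peaks covered 86.1%. In these 5, replicate 1 held more of the width.

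Another was less divided in replicate 2. On V at 9340819 to 9345164 (4346 bp, score 119), replicate 2 held a peak of 3697 bp and one of 146 bp, while replicate 1 held 5 peaks of 388 to 1280 bp, the most of any wide peak in that replicate. Coverage was 88.4% in replicate 2 and 79.3% in replicate 1.

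Others matched closely. The peak on V at 724094 to 728308 (4215 bp) was 1 peak of 3870 bp in replicate 1 and 1 of 4269 bp in replicate 2. On I at 3390006 to 3393469 (3464 bp) the single replicate peaks measured 3357 and 3416 bp. The peak on V at 17122126 to 17125981 (3856 bp) was 4 peaks in each replicate, and these lay side by side. Their centres were 945.5, 968.5 and 903.5 bp apart in replicate 1 and 979.5, 943.5 and 976 bp apart in replicate 2. Scores of these peaks were 29.4 to 33.6 in replicate 1 and 29.3 to 31.7 in replicate 2. The nearest wide peak was 76 bp away.

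Outside the 10 widest, the widest peak of chromosome IV, at 11070896 to 11073471 (2576 bp, score 29.0), was 2 peaks in replicate 1 and 3 in replicate 2, with coverage of 95.3% and 88.5%. A 2243 bp peak on V at 7921607 to 7923849 was among the most divided in replicate 2, with 5 peaks there and 2 in replicate 1.

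**Figure D4:**
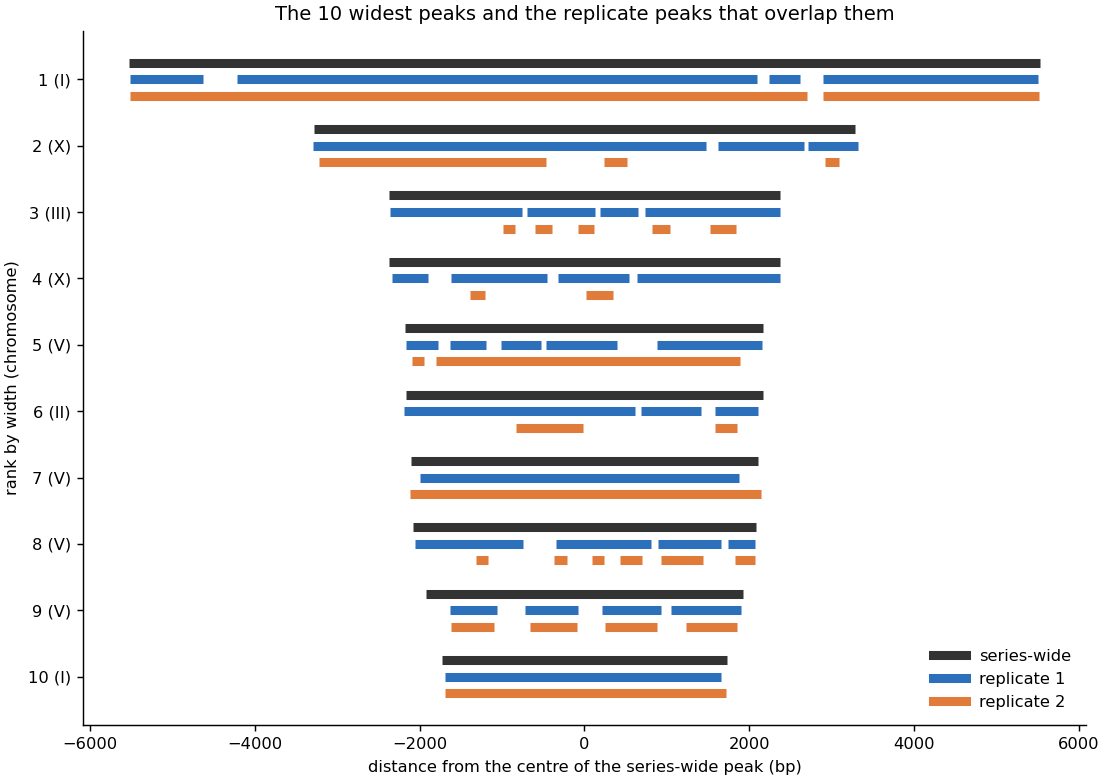
The 10 widest peaks in order of width (y axis, with chromosome), each with its series-wide extent (black) and the peaks of replicate 1 (blue) and replicate 2 (orange) that overlap it, as distance from its centre (x axis, bp). Ranks 7 and 10 are single peaks in both replicates, rank 9 is 4 side-by-side peaks in each, and ranks 3, 4, 6 and 8 are broad in replicate 1 and sparse in replicate 2.

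By chromosome, the wide share of peaks was similar on the autosomes and smaller on X. It was 8.74% on I (137 of 1568 peaks, 7.44 to 10.2), 9.05% on II (104 of 1149), 7.94% on III (115 of 1448), 7.57% on IV (104 of 1374) and 7.44% on V (87 of 1170). Intervals of these 5 overlapped. On X it was 3.44% (27 of 785, 2.37 to 4.96) against 8.15% of the 6709 autosomal peaks (7.52 to 8.83), a difference of -4.71 percentage points (Newcombe 95% interval -5.98 to -3.07). Among peaks scored above the list median 6.31% on X and 15.4% on autosomes were wide, a difference of -9.06 points (-11.4 to -5.98). Per Mb, there were 9.09 wide peaks on I, 8.34 on III, 6.81 on II, 5.94 on IV and 4.16 on V, while X had 1.52.

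The share of wide peaks that lay on X was counted by width class. X held 12 of the 337 peaks of 1000 to 1249 bp (3.56%, 2.05 to 6.12) and 5 of the 42 of 2000 bp or more (11.9%, 5.2 to 25), beside 10.5% of all nuclear peaks. The class just below the threshold, 750 to 999 bp, had 36 of 846 on X (4.26%, 3.09 to 5.83), so a low X share was not confined to wide peaks. The intervals of these classes overlap. Turned round, the share of peaks that were 1500 bp or more differed between X and autosomes by -0.179 points (-0.877 to 0.945), so no difference was detectable at that width. On X the median wide peak spanned 1351 bp, and the median score was 29.7, against 1187 bp and 86.8 on autosomes. Of the 27, 8 lay in the outer 5% at either end of X (29.6%, 15.9 to 48.5). Of the 758 remaining X peaks, 86 did (11.3%, 9.28 to 13.8). The 5% limit was not part of the planned division into arms and centre, by which 3.41% and 3.48% of X peaks were wide. Some of the 8 lay close together, so they are not independent counts. The widest peak on X, near its right end, was the 6565 bp peak described above.

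Along the autosomes, wide peaks made up more of the peaks in centres than in arms. A centre is the middle 50% of a chromosome, and the 25% on its left and on its right are the arms. In centres 319 of 3467 peaks were wide (9.20%, 8.28 to 10.2) and in arms 228 of 3242 (7.03%, 6.20 to 7.96), a difference of 2.17 points (0.861 to 3.47). Left arms and right arms gave 7.02% and 7.05%. The centre value was the higher on each of the 6 chromosomes, by 5.22 points on IV (2.41 to 8.14) and by 0.0695 to 2.47 points on the others, where each interval included 0. Without IV, the autosomal difference was 1.35 points (-0.132 to 2.83).

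Over the autosomes together, no difference was detectable among well-scored peaks. Of autosomal peaks scored above the list median, 299 of 1954 in centres (15.3%) and 217 of 1403 in arms (15.5%) were wide, a difference of -0.165 points (-2.67 to 2.28), and the centre was higher on IV alone. There 18.0% of the centre's and 12.0% of the arms' well-scored peaks were wide, a difference of 6.03 points (0.566 to 11.4). Seen from the wide peaks, 319 of 547 on autosomes lay in centres (58.3%, 54.1 to 62.4), against 51.1% of the remaining peaks (49.8 to 52.3) and 58.3% of the remaining peaks scored above the median (56.4 to 60.1). By width, the centre share was 43.3% at 146 to 299 bp, 62.2% at 500 to 749 bp, 61.2% at 1000 to 1249 bp and 51.4% at 2000 bp or more (35.9 to 66.6, 37 peaks). It was thus lowest among the narrowest peaks, and above the threshold the intervals of the classes overlapped.

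**Figure D5:**
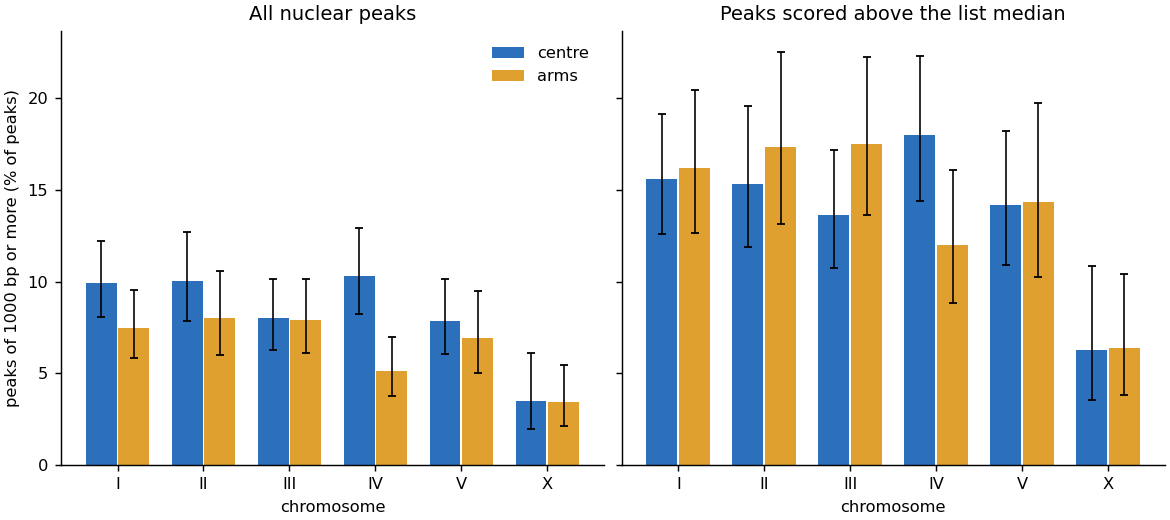
Share of nuclear peaks that were 1000 bp or more wide (y axis, %) in the centre (blue) and arms (orange) of each chromosome (x axis), for all peaks (left) and for peaks scored above the list median (right). Bars are shares and error bars Wilson 95% intervals; X is lowest in both panels, and the centre bar stands clear of the arm bar on IV, at 10.3% and 5.10% of all its peaks.

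The gaps from wide peaks to their neighbours had about the same median as those of other peaks. The gap to the nearest nuclear peak, edge to edge, had a median of 1892 bp (95% interval of the median 1501 to 2106) and ran from 51 to 53857 bp. For the remaining peaks the median was 1880 bp (1780 to 2026), and for those scored above the list median 2549 bp (2405 to 2728). Edges of a wide peak reach further, so centres were compared as well. The median distance to the nearest centre was 2809 bp for wide peaks and 2384 bp for the remaining ones. It was 3101 bp for remaining peaks scored above the list median and 2896 bp for peaks of 750 to 999 bp. A peak within 500 bp was found for 155 wide peaks (27.0%, 23.5 to 30.8) and for 27.2% of the remaining peaks (26.2 to 28.3), but for 17.7% of the remaining peaks scored above the median (16.4 to 19.0).

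Above 1000 bp the edge-to-edge gap shrank with width. Its median was 2092 bp at 1000 to 1249 bp, 1619 bp at 1250 to 1499 bp, 1364 bp at 1500 to 1999 bp and 346.5 bp at 2000 bp or more. Below the threshold it was 1703 bp at 146 to 299 bp and 2162 bp at 750 to 999 bp. Measured between centres the classes above 1000 bp differed less, with medians of 2974, 2599, 2559 and 2522 bp. Of the 42 widest, 22 had a peak within 500 bp. Wide peaks with a neighbour within 500 bp were also more often divided than the other 419. In replicate 1 the shares were 40.0% (32.6 to 47.9) and 21% (17.4 to 25.2). In replicate 2 they were 47.7% (40.0 to 55.6) and 27.0% (22.9 to 31.4). Division and a near neighbour were both more frequent among the widest peaks, and peaks of like width were not compared.

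From one wide peak to the nearest other, the median gap was 33932 bp (31220 to 38417). Of 568 pairs that followed each other along a chromosome, 51 were under 5000 bp apart and 23 under 1000 bp. The closest pair, on V at 3434780 to 3436254 and 3436306 to 3437866, was 51 bp apart, the shortest gap the list contains. In replicate 1 they were 3 and 4 peaks, and in replicate 2 they were 2 peaks each. A further wide peak followed, so that 3 in a row spanned 6385 bp. The farthest from any other lay on X at 1503853 to 1504925, with 1208578 bp to the nearest. It was a single peak of 1026 bp in replicate 1 and of 1040 bp in replicate 2.

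Some wide peaks stood next to each other with no narrower peak between. Of all neighbours of wide peaks, 10.3% were wide (118 of 1148), against 7.45% of the neighbours of remaining peaks. Each pair of adjacent wide peaks is counted from both sides, so no intervals are given for these shares. On autosomes alone the shares were 10.2% and 7.97%, and whether they differ was not tested. The order was not the same on all chromosomes: the shares were 15.4% and 8.43% on II, 14.9% and 6.84% on V and 11.1% and 3.17% on X, while on I they were 7.30% and 8.88%, on III 6.09% and 8.11% and on IV 9.62% and 7.41%. In all, 113 wide peaks formed 54 such runs, 49 of 2 peaks and 5 of 3. The tightest run of 3, on II, spanned 4285 bp from 8288389 to 8292673.

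Wide peaks were spread over nearly all of the genome. Of 97 full windows of 1 Mb, 6 held none, all 6 of them among the 17 on X, and the median window held 5. The fullest held 19 wide peaks among 98 peaks, on IV from 11000001 to 12000000, followed by 17 on I from 10000001 to 11000000. The longest stretch without one was 3318129 bp on X, from 8287264 to 11605392, which contained 110 narrower peaks. On V the longest was 1414812 bp, from 18534230 to 19949041, with 65 narrower peaks. Such stretches were therefore not empty of NURF-1 peaks.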

How the data were processed

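Per the labels' protocols, frozen ground larvae were fixed with EGS and formaldehyde, then sonicated, and TruSeq libraries were sequenced. Per the file headers, peaks carry the label MACS and lie on WormBase WS220; BWA and the ce10 build are named in the submitters' processing notes. Not given in the sources used here are versions, threshold, control, handling of multiply mapping reads, and how replicates were combined. The authors deposited a score per peak, used here to describe and rank peaks within a list.

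From the lists, widths, overlaps (at least 1 bp), gaps and placement were computed with Python 3.11.15, numpy 2.4.6, pandas 2.3.3, scipy 1.17.1 and matplotlib 3.10.9. Chromosome lengths were the last base under a peak in any list. Shares have Wilson and differences Newcombe 95% intervals; medians have intervals from binomial order statistics. All cover counting error only. The functions were tested on simulated lists. Members, comparisons and named peaks were chosen with earlier results of these data known. Named were the 10 widest wide peaks, the 5 highest-scored, the 3 with most peaks in each replicate, the closest pair, the most distant, the widest per chromosome, and 3 at either side of the threshold; others named (the exceptions, runs, windows and stretches) were chosen after their values were seen. Alternatives varied the width threshold, overlap, joining, score class, chromosome ends and the extent of centres, and left out each replicate.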

Additional observations from a re-analysis of the deposited data

How the results depend on the processing

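Of 53 alternatives, 31 left a result within its interval (for the number of wide peaks, within 1.5 times), 21 moved it and 1 reversed it. The omission of each autosome was added after seeing the data. The width threshold moved most results. At 800 bp there were 1192 wide peaks. The X difference was then -10.2 points and the centre difference 4.68, with 81.9% and 77.6% single in replicates 1 and 2, 60.2% and 38.9% wide there as well, and a median gap of 18152 bp between wide peaks. At 1500 bp there were 117 wide peaks, differences of -0.179 and 0.0133 points, 45.3% and 38.5% single, 36.8% and 19.7% wide in the replicates, and median gaps of 1118 bp to any peak and 187762 bp to a wide one. The definition changes with the threshold, so these are values for other sets of peaks. Counting replicate peaks under 100 bp apart as 1 raised the single share to 84.5% and 74.4%. Among peaks scored above the list median alone, the X difference was -9.06 points and the centre difference turned to -0.165. Requiring 1 replicate in place of both gave 98.8% to 99.8%. No paired analysis was possible because the input samples gave no values here and no result comes from a test. Depth is unknown.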
